A study of Gallus gallus with 205 samples.

Results

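Genes of collagens, laminins, nidogens, fibrillins and fibulins, with SPARC and the perlecan gene HSPG2, were followed through single cells of the chicken gastrula. They were chosen by symbol alone: a whole symbol made of COL, a number, A and a number, or LAMA, LAMB, LAMC, NID, FBN or FBLN with a number, plus the 2 single genes. Of the 20581 genes present in both count tables, 55 matched. Cells came from White Leghorn embryos incubated for 20 to 27 hours, to Hamburger-Hamilton stage 4, when the primitive streak is at its full length and cells pass through it to become mesoderm and endoderm. The primitive streak was cut out, and what remained of the area pellucida, the clear central disc of the blastoderm, was kept as the surrounding region. Streak cells carry 4 series names, cPS (27 cells), cPS1 (37), cPS2 (59) and cPS3 (52), and surrounding-region cells the name cSR (30). No group was treated or carried a mutation. The labels name no embryo and do not explain the series names, so each series is 1 sample, differences have no replicate check, and no p-value is given.

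The embryonic matrix has 2 main builds that these genes supply. Basement membranes are sheets under epithelia, made of laminin trimers (1 alpha, 1 beta and 1 gamma chain) and type IV collagen, tied together by nidogens and perlecan. Fibrillar collagens such as types I and II form fibres, fibrillins form microfibrils, and fibulins bind to basement membranes and elastic fibres. During gastrulation the basement membrane under the epiblast is breached along the streak, where cells leave the epithelium, and persists on either side, where mesoderm cells migrate along it.

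Expected counts per cell totalled 201170 to 4552697, with a median of 2459318, and the series' medians lay between 2262998 and 2663855. Levels are counts per 1000000 (CPM): for a series, counts and totals were each summed over its cells before dividing (pooled CPM), and a cell detected a gene at 10 CPM or more. Intervals in brackets are 95% exact Poisson intervals for pooled CPM and exact Clopper-Pearson intervals for shares of cells. The Poisson intervals cover counting error only, and the Clopper-Pearson intervals the sampling of cells, taken as independent draws. Neither kind covers differences between embryos. Whether PCR copies were removed was not given in the sources used here. Library identifiers fall into 4 consecutive blocks: cPS and cSR cells lie in blocks 1 and 2, whereas those of the numbered streak series fall in blocks 3 and 4. The main comparison was therefore cPS with cSR. Of the cSR cells, 6 were also labelled epiblast. The highest correlation of log2 CPM between any pair of cells was 0.857. The files give no gene lengths, so levels are compared between series for 1 gene, not between genes. Shares of cells at 10 CPM are likewise given per gene, since a longer gene reaches that limit more easily.

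Labels and markers were set side by side first. The mesendoderm factor EOMES stood at 186 CPM in cPS against 46.2 CPM in cSR, and the node gene CHRD at 54.6 CPM in cPS against 0.229 CPM in cSR. T, the brachyury gene of the streak, was high in both, at 2218 CPM in cPS against 1194 CPM in cSR. Of the 5 streak mesendoderm markers measured, EOMES alone was at least 2-fold higher in cPS. The others had log2 ratios of -0.16 to 0.89. Of the 6 measured paraxial mesoderm markers, MSGN1 (1.26) and MESP2 (1.30) were higher and CDX4 (-2.01) lower. Among the 5 measured epiblast and neural plate markers, GNOT1, also on the node list, was higher (2.54) and SOX3 lower (-1.35). Markers of lateral and vascular mesoderm were summed per cell at 1.60 to 1158 CPM in cPS (median 102.1) and at 8.14 to 2984 CPM in cSR (median 611), with 0 of 11 at 0 in both series. Of the 9 measured, 5 were at least 2-fold lower in cPS. Markers of non-neural ectoderm summed to 0 to 176 CPM in cPS cells and 0.993 to 1750 CPM in cSR cells, and 3 of 4 measured were lower in cPS, among them VGLL1 at 0.181 against 29.7 CPM. Endoderm and hypoblast markers summed to 1.57 to 9372 CPM in cPS cells (median 299) and 3.87 to 685 CPM in cSR cells (median 182), with 0 of 10 at 0. Of the 6 measured, APOA1, CXCR4 and CER1 were higher in cPS, at 282 against 13.6 CPM, 439 against 33.7 CPM and 104.7 against 29.8 CPM. The others had log2 ratios of -0.50 to 3.19 over both blocks, but -3.11 to -0.58 in block 2, where CER1 had 0.21. Stress genes summed to 5213 to 19902 CPM in cPS cells and 5632 to 19149 CPM in cSR cells, and of the 7 measured, HSPA2 was higher in cPS and JUN lower, with log2 ratios of 1.37 and -1.12.

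Several basement membrane genes were detected in most cells, while each fibrillar collagen gene other than COL1A2 was detected in 15.4% of streak cells or fewer. At least 1 of those 6 fibrillar genes was detected in 44.4% of cPS, 45.9% of cPS1, 42.4% of cPS2 and 44.2% of cPS3 cells and in 66.7% of cSR cells (47.2 to 82.7). A streak cell detected a median of 14 or 15 of the 55 genes by series (range 6 to 23) and a cSR cell a median of 16 (range 12 to 21). Together the 55 genes took 2914 CPM in cPS, 3354 in cPS1, 3314 in cPS2, 3083 in cPS3 and 3400 in cSR, so the series differed little in the sum. At least 50% of all streak cells detected 12 genes, 21.8% of the 55, while 21.4% of all genes met that mark. These were LAMC1, LAMA5, LAMA1, LAMB1, COL4A5, COL4A6, NID2, SPARC, COL1A2, FBN3, FBLN2 and COL23A1. In cSR 14 genes did, the same 12 with NID1 and FBN2. A further 7 were found in 20% to 50% of streak cells (NID1, COL4A1, FBN1, FBN2, FBLN1, COL13A1 and COL8A2). The other 36 lay under 20%, and 6 of them, FBLN5, COL6A6, COL16A1, COL28A1, COL8A1 and LAMB2, reached 10 CPM in no cell of either tissue. By role, 8 of 23 basement membrane genes, 1 of 7 fibrillar collagens, 2 of 7 elastic fibre genes and 1 of 18 other collagens passed 50%. Of 11 listed fibrillar collagen genes, only these 7 were in both tables. Without gene lengths, shares and counts of this kind do not rank roles by level.

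**Figure D1:**
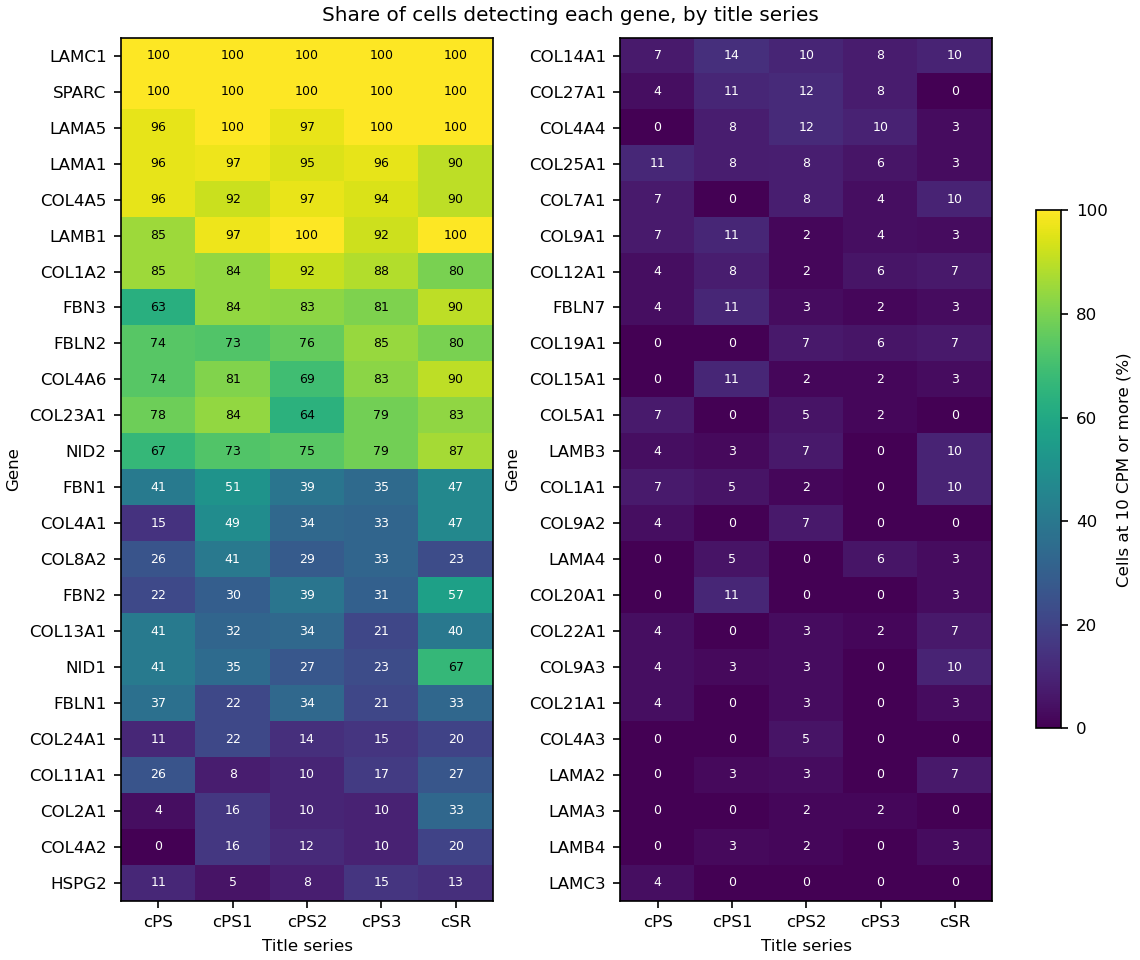
Share of cells at 10 CPM or more (colour and printed percent) for genes detected in at least 1 cell, 1 row per gene and 1 column per title series, ordered by share in all streak cells. LAMC1 and SPARC stood at 100% in all 5 series, and NID1, FBN2, COL2A1 and FBN3 were at their highest share in cSR.

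Of the laminin chain genes, LAMC1, LAMB1, LAMA1 and LAMA5 were each detected in most cells of every series. LAMC1, the gamma chain shared by most laminins, was detected in every streak cell and in 30 of 30 cSR cells. Its level per cell had a lowest, median and highest value of 106.99, 655 and 1686 CPM in cPS, 202, 731 and 1591 CPM in cPS1, 155.3, 708 and 3869 CPM in cPS2, 58.3, 745 and 2369 CPM in cPS3, and 90.9, 511 and 1696 CPM in cSR. All 5 ranges shared the stretch from 202 to 1591 CPM, and cPS2 reached the highest. Pooled LAMC1 was 641 CPM in cPS (635 to 647) against 627 CPM in cSR (621 to 633), and 740 to 928 CPM in the other streak series.

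LAMB1, its beta partner, was found in 85.2% of cPS, 97.3% of cPS1, 100% of cPS2, 92.3% of cPS3 and 100% of cSR cells, and pooled to 196 CPM in cPS against 196 CPM in cSR. The alternative beta chain gene LAMB2, which serves mature basement membranes in mammals, had 1 count in all streak cells together and no cell above 0.419 CPM. Alpha chains bind the cell's receptors, and both LAMA1, the alpha chain of the earliest embryonic laminin in mammals, and LAMA5 were common. LAMA5 was detected in 96.3%, 100%, 96.6% and 100% of cPS, cPS1, cPS2 and cPS3 cells and in 100% of cSR cells. LAMA1 was detected in 96.3%, 97.3%, 94.9% and 96.2% of the same streak series and in 90% of cSR cells (73.5 to 97.9).

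Both alpha chains were lowest in cPS. LAMA5 pooled to 229 CPM in cPS (225 to 232), 395 in cPS1, 321 in cPS2, 350 in cPS3 and 265 in cSR (261 to 268). LAMA1 pooled to 157.7 CPM in cPS (154.8 to 160.6), 288 in cPS1, 216 in cPS2, 301 in cPS3 and 236 in cSR (233 to 240). Neither gene differed 2-fold between cPS and cSR, with log2 ratios of -0.21 for LAMA5 and -0.58 for LAMA1. Other chains were rare: LAMA2, LAMA3, LAMA4, LAMB3, LAMB4 and LAMC3 were each detected in 1 to 6 streak cells.

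**Figure D2:**
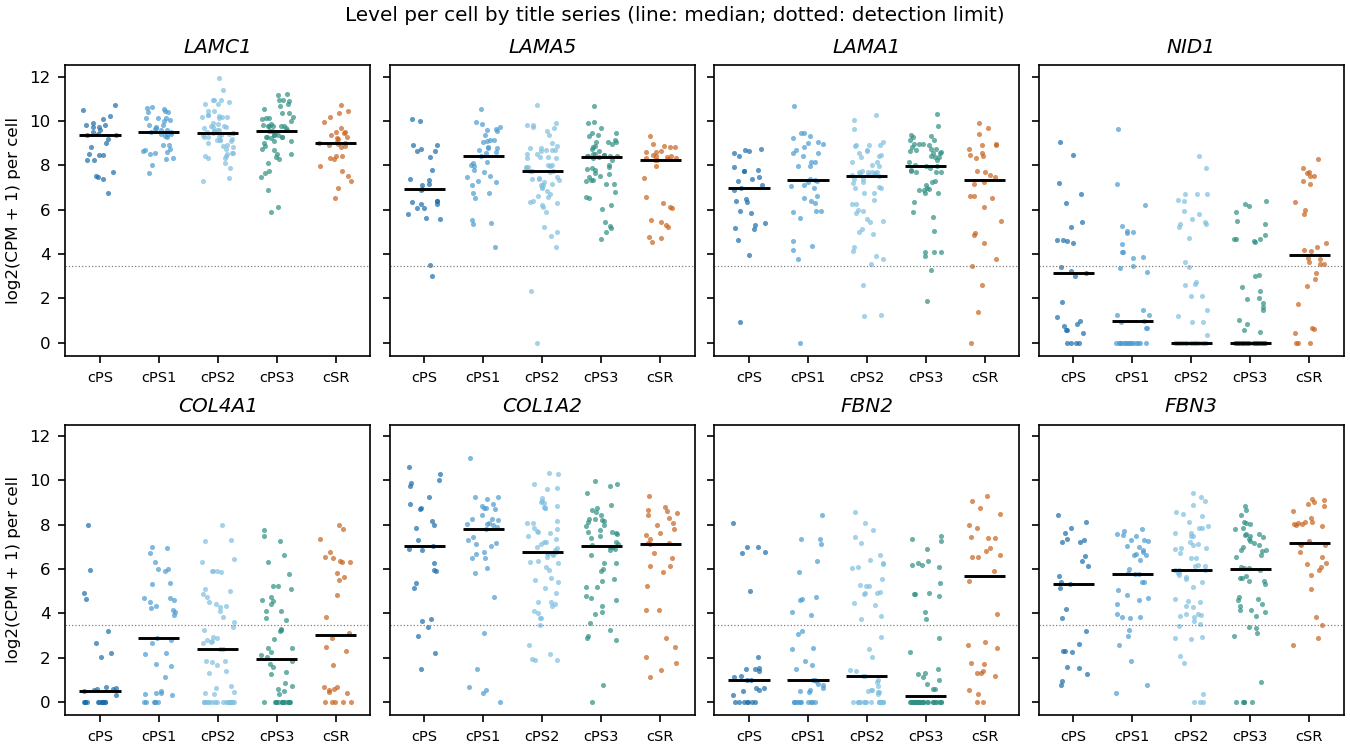
Level of 8 genes in each cell, as log2(CPM + 1), by title series: 1 point per cell, a black line at the median, and a dotted line at the detection limit of 10 CPM. LAMC1 lies above the limit in every cell, whereas NID1, COL4A1 and FBN2 hold many cells at or near 0, and the FBN2 median is highest in cSR.

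Of the type IV collagen genes, COL4A5 and COL4A6 passed 50% of streak cells, and COL4A1 and COL4A2 did not. COL4A5 was detected in 96.3% of cPS, 91.9% of cPS1, 96.6% of cPS2, 94.2% of cPS3 and 90% of cSR cells, at 174.5, 272, 241, 187 and 324 pooled CPM in that order of series. COL4A6 was detected in 69.5% to 82.7% of cells by streak series and in 90% of cSR cells. COL4A1 makes, with COL4A2, the type IV trimer of most basement membranes. Its lowest, median and highest levels were 0, 0.424 and 249 CPM in cPS, 0, 6.45 and 124.1 CPM in cPS1, 0, 4.19 and 249 CPM in cPS2, 0, 2.89 and 216 CPM in cPS3, and 0, 7.04 and 249.5 CPM in cSR.

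COL4A1 was detected in 4 of 27 cPS cells (14.8%, 4.19 to 33.7), against 48.6% of cPS1 (31.9 to 65.6), 33.9% of cPS2, 32.7% of cPS3 and 46.7% of cSR cells (28.3 to 65.7). A single cell held 67.8% of the cPS counts. COL4A2 was detected in 0 of 27 cPS cells, with an upper bound of 12.8%, where its 3 counts equalled the floor of 3 counts, or 0.0419 CPM. It was detected in 16.2% of cPS1, 11.9% of cPS2, 9.62% of cPS3 and 20% of cSR cells (7.71 to 38.6). COL4A3 and COL4A4, the remaining type IV chains, were detected in 3 and 15 streak cells. In the gene order of the reference assembly GRCg7b, COL4A1 and COL4A2 lie next to each other, and so do COL4A5 and COL4A6.

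The linkers of the basement membrane were followed next. NID2 was detected in 66.7%, 72.97%, 74.6% and 78.8% of cPS, cPS1, cPS2 and cPS3 cells and in 86.7% of cSR cells. NID1 had the widest spread of shares among the 55 genes, at 40.7% of cPS, 35.1% of cPS1, 27.1% of cPS2 and 23.1% of cPS3 cells (12.5 to 36.8) and 66.7% of cSR cells (47.2 to 82.7). Its pooled level followed the same order in the streak, at 60.4, 31.9, 25.6 and 10.4 CPM, with 70.3 CPM in cSR.

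NID1 per cell ranged from 0 to 522 CPM in cPS (median 7.71), 0 to 806 CPM in cPS1 (median 0.994), 0 to 339 CPM in cPS2 (median 0), 0 to 82.1 CPM in cPS3 (median 0) and 0 to 316 CPM in cSR (median 14.8). More than 50% of cells in each streak series were under the detection limit, so the overlap was complete at the low end. In cPS1, 1 cell held 63.9% of the counts, and without its highest cell in each series NID1 stood at 41.4, 11.8, 19.8 and 8.08 CPM in the 4 streak series and 60.9 CPM in cSR. Perlecan (HSPG2), a heparan sulphate proteoglycan, was detected in 5.41% to 15.4% of cells of every series, at no more than 4.996 pooled CPM. SPARC, a secreted collagen-binding glycoprotein, was the most even of the 12 widespread genes, at 336, 309, 339 and 314 CPM in cPS, cPS1, cPS2 and cPS3 and 283 CPM in cSR, in every cell of each series.

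Of the 7 fibrillar collagens in both tables, only COL1A2 passed 50% of streak cells. It was detected in 85.2% of cPS, 83.8% of cPS1, 91.5% of cPS2, 88.5% of cPS3 and 80% of cSR cells. Its lowest, median and highest levels were 1.77, 128.8 and 1551 CPM in cPS, 0, 223 and 2065 CPM in cPS1, 2.66, 108.1 and 1292 CPM in cPS2, 0, 130.9 and 996 CPM in cPS3, and 1.17, 140 and 620 CPM in cSR. The medians of cPS and cSR were close, and cPS reached higher in its top cells. COL1A1, the other chain of type I collagen, was detected in 7.41%, 5.41%, 1.69% and 0% of cPS, cPS1, cPS2 and cPS3 cells and in 10% of cSR cells, and no cell exceeded 25.3 CPM. COL2A1, the chain of notochord and cartilage collagen, was detected in 3.70% of cPS (0.0937 to 18.97), 16.2% of cPS1, 10.2% of cPS2, 9.62% of cPS3 and 33.3% of cSR cells (17.3 to 52.8). COL5A1 was detected in 6 streak cells and 0 of 30 cSR cells (upper bound 11.6%). COL11A1, COL24A1 and COL27A1 lay between 9.14% and 15.4% of streak cells.

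The elastic fibre genes include 3 fibrillins. FBN1 was detected in 40.7% of cPS, 51.4% of cPS1, 39.0% of cPS2, 34.6% of cPS3 and 46.7% of cSR cells, at 30.2, 47.7, 41.6 and 41.02 pooled CPM in the streak series and 39.7 CPM in cSR. FBN2, a fibrillin of embryonic tissues in mammals, was detected in 22.2% (8.62 to 42.3), 29.7%, 39.0% and 30.8% of the 4 streak series and in 56.7% of cSR cells (37.4 to 74.5). Its levels ran from 0 in each series to 272 CPM in cPS (median 0.995), 347 in cPS1 (median 0.988), 375 in cPS2 (median 1.24), 180 in cPS3 (median 0.239) and 623 in cSR (median 51.4).

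FBN3 was detected in 62.96%, 83.8%, 83.1% and 80.8% of cPS, cPS1, cPS2 and cPS3 cells and in 90% of cSR cells. Its lowest, median and highest levels were 0.704, 38.8 and 341 CPM in cPS, 0.316, 54.2 and 223 CPM in cPS1, 0, 60.8 and 678 CPM in cPS2, 0, 62.8 and 451 CPM in cPS3, and 4.88, 145.1 and 567 CPM in cSR. Single cells of all series overlapped, with the cSR median above each streak median. FBLN2 was detected in 72.97% to 84.6% of cells by streak series and 80% of cSR cells, and FBLN1 in 21.2% to 37.04% and 33.3%. FBLN7 was detected in 8 streak cells.

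Of the 18 collagens on neither the fibrillar nor the basement membrane list, 3 passed 20% of streak cells. COL23A1 and COL13A1 are transmembrane collagens, and COL23A1 was detected in 64.4% to 83.8% of cells by streak series and 83.3% of cSR cells. COL13A1 was detected in 40.7%, 32.4%, 33.9% and 21.2% of cPS, cPS1, cPS2 and cPS3 cells and in 40% of cSR cells. COL8A2, a short-chain network collagen, was at 8.18, 21.9, 7.64 and 20.0 CPM in the streak series and at 12.6 CPM in cSR. The remaining 15 of the 18 lay under 20%, COL25A1 among them in 14 streak cells.

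The cPS cells were next set against the cSR cells of the same identifier blocks. A gene was called when its pooled levels differed at least 2-fold after 1 CPM was added to each, with 10 CPM or more in the higher series and the same sign in blocks 1 and 2. The fibrillin and type IV genes FBN2, FBN3 and COL4A1 and the fibrillar COL2A1 were lower in cPS, whereas COL1A2 and COL25A1 were higher. Of the 22 genes at 10 CPM or more in either series, 2 were higher and 4 lower, that is 9.09% and 18.2%, where 7.49% of 8249 genes were called higher and 10.1% lower. The median log2 ratio of the 22 was -0.42, against -0.05 over all genes. Factors from TMM shifted the scale of cPS over cSR up by 0.143 (log2), which the added 1 CPM damps in genes with low counts, and all genes then split into 9.95% higher and 8.17% lower. Marker genes of streak mesendoderm, paraxial and lateral mesoderm, non-neural ectoderm, node, epiblast, and endoderm and hypoblast also differed between these series, as given above. So did the stress genes HSPA2 and JUN. The part of all these genes in the ratios was not tested.

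FBN2 had the largest called ratio among genes over 50 CPM in either series, at 27.97 CPM in cPS (26.8 to 29.2) against 146.7 CPM in cSR (143.9 to 149.6). Its log2 ratio was -2.35, with -1.93 in block 1 and -2.65 in block 2, and -2.55 without the highest cell of each series. FBN3 was at 81.2 CPM in cPS against 208 CPM in cSR, a log2 ratio of -1.35 with -1.53 and -1.16 in the 2 blocks. COL2A1 was at 0.876 CPM in cPS against 10.5 CPM in cSR, a log2 ratio of -2.61 with -2.35 and -2.50 in the blocks. Without the highest cells COL2A1 was under the 10 CPM minimum, with 0.155 CPM in cPS against 8.04 CPM in cSR.

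COL4A1 was at 15.4 CPM in cPS against 43.004 CPM in cSR, with a log2 ratio of -1.42. The blocks were far apart, at -3.67 in block 1 and -0.11 in block 2. With TMM factors the pooled ratio was -1.29, but the block 2 value turned to 0.03, so the condition on both blocks was not met. With DESeq2 factors the ratio was -1.34, with -0.03 in block 2, and the call was kept. Without the highest cells the levels were 5.19 CPM in cPS against 33.96 CPM in cSR, a log2 ratio of -2.50.

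COL1A2 was at 339 CPM in cPS (335 to 343) against 164.001 CPM in cSR (161.008 to 167), a log2 ratio of 1.04 with 1.24 and 1.02 in the blocks. That lay at the 2-fold limit: without the highest cells the ratio was 0.98, and from means of CPM per cell 0.999, just short of the limit. COL25A1, a transmembrane collagen first known from amyloid plaques of human brain, was at 19.6 CPM in cPS against 0.600 CPM in cSR. It was detected in 3 of 27 cPS cells and 1 of 30 cSR cells. A single cell held 67.2% of its cPS counts, and without the highest cells it stood at 6.70 CPM in cPS against 0.0444 CPM in cSR, under the minimum.

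**Figure D3:**
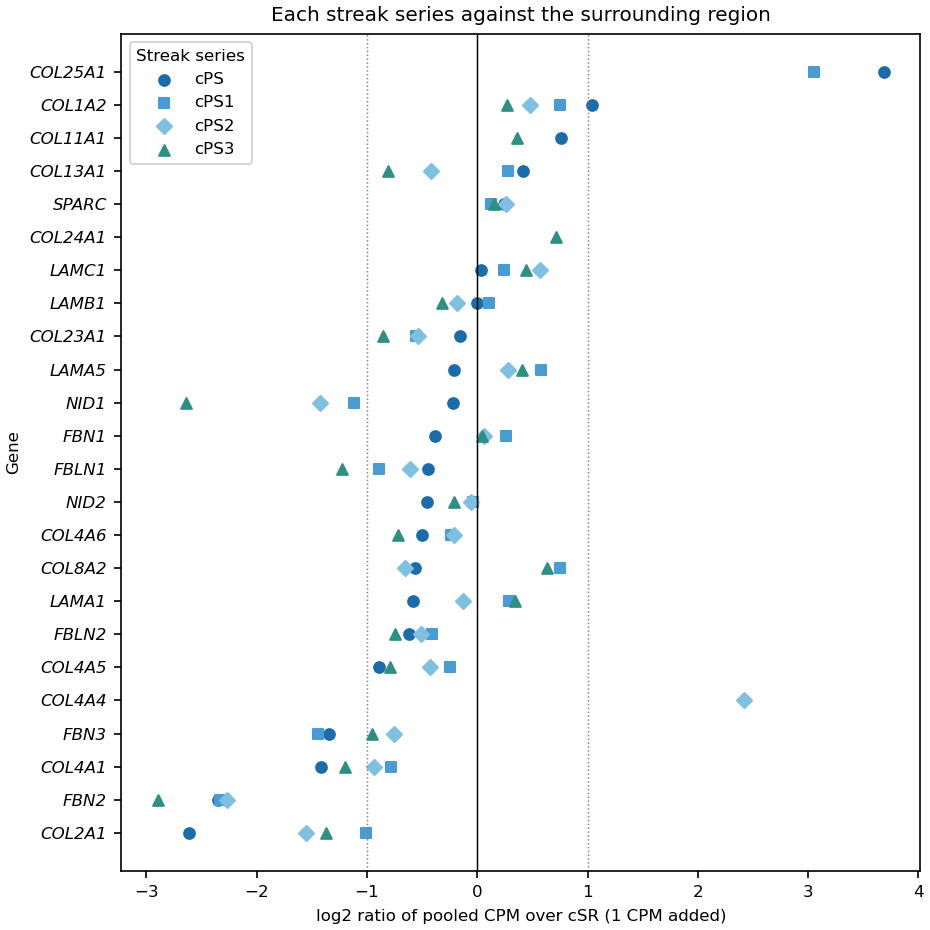
Log2 ratio of pooled CPM over cSR, with 1 CPM added, for each streak series (symbols) and each gene with 10 CPM or more in that series or in cSR; dotted lines mark 2-fold. FBN2 and COL2A1 lie at or beyond the lower line in all 4 series, and NID1 runs from -0.22 in cPS to -2.64 in cPS3.

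The numbered streak series were compared with those 30 cSR cells too, so the 4 comparisons are not independent. As cPS1, cPS2 and cPS3 share no identifier block with cSR, block and tissue cannot be told apart in their ratios. Of the cPS2 cells, 31 lie in block 3, with those of cPS1, and 28 in block 4, with those of cPS3. In cPS1, 1 gene of 21 measured was higher and 4 were lower, where 12.3% and 8.52% of all genes were. In cPS2, 1 of 21 was higher and 3 were lower, against 9.0% and 8.58% of all genes. In cPS3, 1 of 23 was higher and 5 were lower, against 8.17% and 9.1%.

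Lower in every streak series were FBN2, with log2 ratios of -2.35, -2.33, -2.27 and -2.90 in cPS, cPS1, cPS2 and cPS3, and COL2A1, with -2.61, -1.005, -1.55 and -1.37. Without each series' highest cell the FBN2 ratios were -2.55, -2.66, -2.43 and -2.85, while COL2A1 was under the minimum, with 8.04 CPM in cSR. FBN3 had ratios of -1.35, -1.44, -0.76 and -0.96, on the lower side throughout and past 2-fold in cPS and cPS1.

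NID1 was 2-fold lower in cPS1 (-1.12), cPS2 (-1.42) and cPS3 (-2.64) but not in cPS (-0.22). FBLN1 was called lower in cPS3 alone, at -1.22, and without the highest cells it was at -0.90. COL4A1 was called in cPS and in cPS3, at -1.20, with -0.78 in cPS1 and -0.93 in cPS2. COL1A2, called higher in cPS, was under 2-fold in the numbered series, at 0.75 in cPS1, 0.48 in cPS2 and 0.27 in cPS3. Without the highest cells its ratios there were 0.50, 0.46 and 0.25. The higher calls of COL25A1 in cPS1, at 3.06, and COL4A4 in cPS2, at 2.42, rested on few cells. Without the highest cells these genes stood at 5.60 and 4.20 CPM in their series, under the minimum of 10 CPM.

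Genes that act on these proteins were read from fixed lists in the same cPS and cSR cells, where 7.49% of all genes were called higher and 10.1% lower. Of 19 genes for collagen folding and crosslinking in the tables, 11 were measured, 1 was called higher and 0 lower. The called gene was PLOD2, a lysyl hydroxylase whose product sets crosslinks, at 66.3 CPM in cPS against 28.8 CPM in cSR with a log2 ratio of 1.18. PLOD1 had a ratio of -0.96 and LOXL1, a lysyl oxidase relative, -0.73. The crosslinking enzymes LOX and LOXL3 were at 0 in both series. Of 9 receptor genes only ITGB1, the integrin beta chain shared by collagen and laminin receptors, reached the minimum, at 342 CPM in cPS against 400 CPM in cSR.

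Among 21 measured genes of other matrix proteins, 4 were higher and 4 lower in cPS. FREM1, FRAS1 and FREM2 are relatives that act in one basement membrane complex in mammals. FREM1 and FRAS1 were higher in cPS, at 23.5 against 4.06 CPM and 89.2 against 31.7 CPM. FREM2 was lower, at 0.0837 against 15.7 CPM (log2 ratio -3.95). LUM, the small proteoglycan lumican, stood at 0.0279 CPM in cPS, under the floor of 0.0419 CPM, against 10.1 CPM in cSR, with a log2 ratio of -3.43. Without the highest cells LUM was under the minimum, at 0 CPM in cPS against 3.01 CPM in cSR. The collagen-associated SMOC2 had 3.69 over both blocks but -0.21 in block 2, so it was not called. Of 10 measured proteases and inhibitors 0 were higher and 2 lower: the plasminogen activator PLAU stood at 9.13 CPM in cPS against 64.2 CPM in cSR (-2.69, and -3.999 without the highest cells), and the membrane-bound protease MMP16 had a ratio of -1.53. ADAM9 was next in size, at 0.74, and was not called.

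Which genes went together was read from Spearman's rank correlation coefficient of log2(CPM + 1) over all streak cells. Correlations over cells are descriptions: cells of a series share library preparation, and no p-value is given. Pairs were formed from the 19 genes detected in at least 20% of streak cells. Most pairs had coefficients near 0. The median coefficient of the 171 pairs was 0.04, against 0.02 over all pairs of 7301 genes under the same filter, and the range was -0.25 to 0.46. Only 1 pair reached 0.3, 0.585% of the 171, where 0.128% of all pairs did, and 10 pairs (5.85%) reached 0.2, where 1.70% of all did. The central 95% of all pairs ran from -0.15 to 0.19.

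The pair past 0.3 joined FBN3 and LAMA5, a fibrillin and a laminin chain, at 0.46. It held in most series taken alone: 0.55 in cPS, 0.18 in cPS1, 0.52 in cPS2 and 0.51 in cPS3, with 0.65 in the 30 cSR cells. Within cPS it was 0.60 in block 1 and 0.65 in block 2. The next were FBLN2 with FBN3 (0.30), COL13A1 with LAMA5 (0.28), with FBN3 (0.28) and with FBN1 (0.26), FBLN1 with NID1 (0.25), COL23A1 with FBN3 (0.25) and COL1A2 with NID2 (0.23). Of these 8 pairs, 5 held FBN3 or LAMA5 with 1 of COL13A1, FBLN2 or COL23A1, or each other. By series COL1A2 with NID2 had -0.27 in cPS, 0.47 in cPS1, 0.36 in cPS2 and 0.18 in cPS3. FBLN1 with NID1 had 0.05 in cPS and 0.23 to 0.34 in the numbered series. COL13A1 with FBN3 had 0.13 to 0.46 by streak series and -0.13 in cSR. The lowest value, -0.25, was that of FBN2 with SPARC. By series that pair had -0.01 in cPS, -0.34 in cPS1, -0.48 in cPS2 and -0.06 in cPS3.

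**Figure D4:**
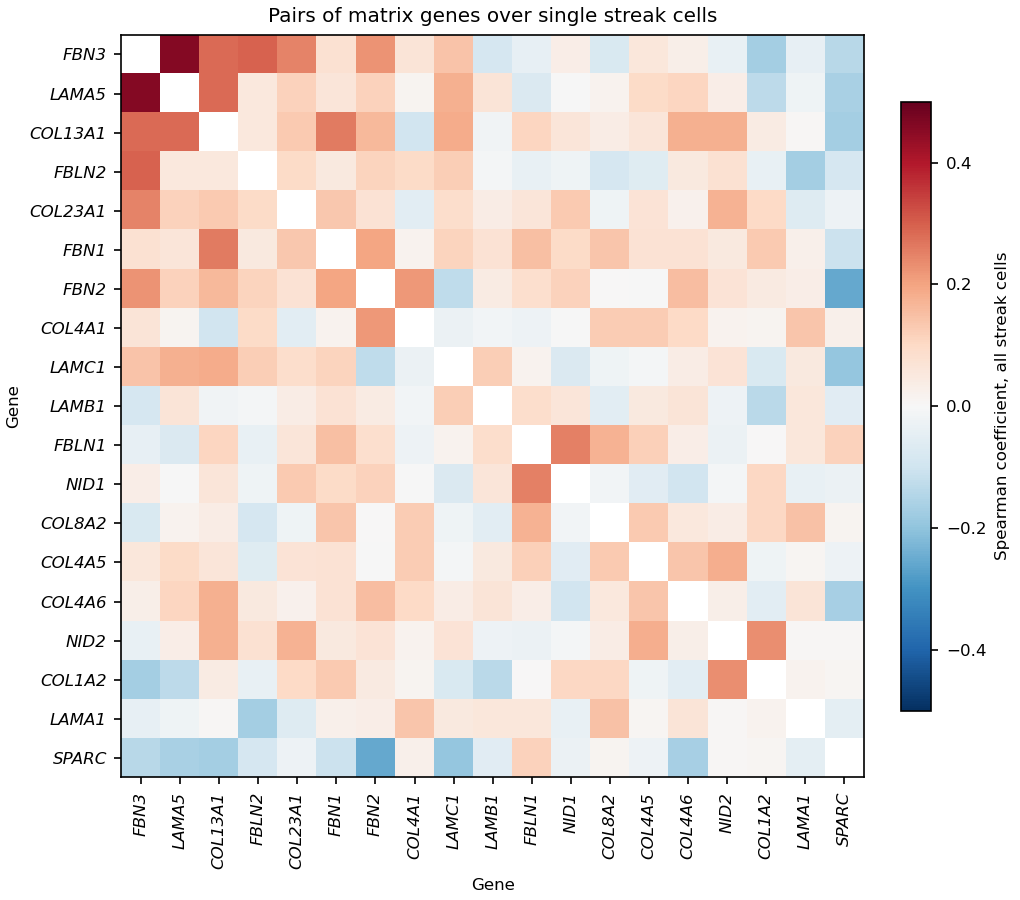
Spearman's rank correlation coefficient over all streak cells for all pairs of the 19 genes detected in at least 20% of them (colour scale from -0.5 to 0.5). FBN3 and LAMA5 form the darkest cell at 0.46, and most other pairs lie near the median of 0.04.

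Chains that are assembled into one molecule had positive coefficients of 0.05 to 0.19 over the streak. For 3 of these pairs under 4% of all gene pairs were as high. Of these, LAMA5 with LAMC1 alone passed the detection filter set for all gene pairs. COL4A2 and COL1A1 did not, at 10.3% and 2.86% of streak cells, each with a median of 0 CPM. Their pairs were ranked against pairs of more widely detected genes, so their shares are not a like-for-like rank. LAMA5 with LAMC1 had 0.18 (2.95% of all pairs at or above). By series that pair had 0.26 in cPS, 0.001 in cPS1, 0.04 in cPS2, 0.35 in cPS3 and 0.37 in cSR. LAMB1 with LAMC1 had 0.12 (10.8% at or above), LAMA1 with LAMB1 0.06 (32.7%) and LAMA1 with LAMC1 0.05 (35.4%). COL4A1 with COL4A2 had 0.19 (2.38%), while COL4A2 was detected in 6 of the 59 cells with COL4A1 (10.2%) and in 12 of those without it (10.3%). COL4A5 with COL4A6, a pair added after the fixed ones, had 0.14. Its sign differed between blocks: -0.04 in block 1 and 0.72 in block 2 of cPS, and -0.15 and 0.43 in those of cSR. In cPS2 it was 0.47 in block 3 and -0.25 in block 4. FBN1 with FBN2 had 0.20, COL4A1 with SPARC 0.03 and HSPG2 with COL4A1 -0.03.

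All 5 streak cells that detected COL1A1 also detected COL1A2, as did 87.6% of the others. Their coefficient was 0.17 in the streak, with 3.88% of all pairs, whose detection filter COL1A1 did not pass, at or above. By series it was 0.09 in cPS, -0.09 in cPS1, 0.30 in cPS2, 0.31 in cPS3 and 0.32 in cSR. NID1 with LAMC1, whose products bind each other, had -0.07 in the streak and 0.50 in cSR. For the alpha chains LAMA1 and LAMA5, picked out once their values were seen, the coefficient was -0.02 in the streak and -0.44 in cSR, where it was -0.49 in block 1 and -0.33 in block 2.

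One pair ran in opposite directions in cPS, a pattern also singled out after its values were seen. In the 27 cPS cells COL1A2 and LAMA5 had a coefficient of -0.80, with -0.78 in the 16 cells of block 1 and -0.83 in the 11 cells of block 2. Of 26648650 gene pairs, 31 were as low or lower in these cells, and the lowest other pair among the 19 genes was COL1A2 with FBN3, at -0.60. In the other series it was 0.17 in cPS1, -0.01 in cPS2, -0.06 in cPS3 and 0.06 in cSR.

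In levels, the 14 cPS cells at or above the COL1A2 median of 128.8 CPM had LAMA5 at 6.95 to 394 CPM (median 71.2), while the 13 below it had LAMA5 at 75.7 to 1087 CPM (median 332). In the same cells COL1A2 had a coefficient of 0.51 with the summed node and notochord markers and -0.63 with those of lateral and vascular mesoderm, and LAMA5 had -0.48 and 0.71. In cPS1, cPS2 and cPS3 COL1A2 had 0.12, 0.21 and 0.46 with the node list and -0.19, -0.29 and -0.11 with the lateral list. LAMA5 had 0.21, -0.17 and -0.06 there with the node list and 0.15, 0.44 and 0.29 with the lateral list. In the 30 cSR cells COL1A2 had 0.17 with the node list and 0.30 with the lateral list, and LAMA5 0.12 and 0.61. The part of these marker genes in the pair was not tested.

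The 19 genes were set beside summed marker lists by their coefficients over cells. FBN3, LAMA5, COL13A1 and FBLN2 were positive with both mesoderm lists, and so were COL23A1, LAMC1, FBN1, FBN2, COL4A6 and NID1. With the list of stress genes FBN1 had 0.14 in the streak and 0.44 in cSR, where it had 0.13 and 0.26 with the mesoderm lists. NID1 had -0.30 with the stress list in cSR, against 0.09 and 0.21. LAMB1 had -0.37 with the stress list in cSR, FBN3 -0.33 and COL8A2 -0.31. The part of stress genes in the coefficients was not tested. COL23A1 had 0.21 in the streak and 0.33 in cSR with the paraxial list, and 0.28 and 0.24 with the lateral list. With the epiblast and neural plate list COL23A1 had -0.25 and -0.52. FBN3 had 0.47 with the lateral and vascular list in the streak and 0.46 in cSR, and -0.38 and -0.30 with the epiblast and neural plate list. LAMA5 had 0.39 and 0.61 with the lateral list, and 0.40 and 0.53 with SNAI2, a repressor of epithelial genes. With CDH1, the epithelial cadherin, LAMA5 had 0.03 in the streak and -0.61 in cSR. COL13A1 had 0.45 and 0.56 with the paraxial mesoderm list, and FBLN2 0.35 and 0.43. With the endoderm and hypoblast list FBLN2 had 0.03 and 0.54, its highest value with any list in cSR, LAMA5 had 0.26 and 0.34, FBN3 0.16 and 0.36, and COL13A1 0.12 and 0.04.

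LAMA1 and COL4A1 were positive with the epithelial lists over all streak cells and in cSR. LAMA1 had 0.21 in the streak and 0.59 in cSR with the epiblast and neural plate list, and -0.10 and -0.60 with the paraxial list. In cPS alone LAMA1 had the opposite sign, at -0.18 with the epiblast list and 0.19 with the lateral list, and COL4A1 had -0.001 with the epiblast list. COL4A1 had 0.32 and 0.51 with the non-neural ectoderm list. FBLN1 had 0.31 and 0.32 with the endoderm and hypoblast list, and 0.06 and 0.42 with the lateral list. COL1A2 had 0.31 and 0.17 with the node list, and 0.08 and -0.47 with the epiblast list. The node list summed to a median of only 3.11 CPM in cSR cells, so its cSR coefficients rest on low levels. Over 9 lists, stress genes included, 12 of 171 values were at 0.3 or beyond in either direction in the streak, and all 12 had the same sign in cSR, where 8 were also at 0.3 or beyond. Over all 171 values 63.7% had the same sign in both, and in cSR 51 were at 0.3 or beyond. Embryos are not named, so streak and cSR cells may come in part from the same embryos and are not known to be independent. In the streak the coefficient with the total count of a cell lay between -0.29 for FBN2 and 0.18 for SPARC. In cSR it lay between -0.23 for COL4A1 and 0.43 for FBN2, so FBN2 had opposite signs in the streak and cSR.

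**Figure D5:**
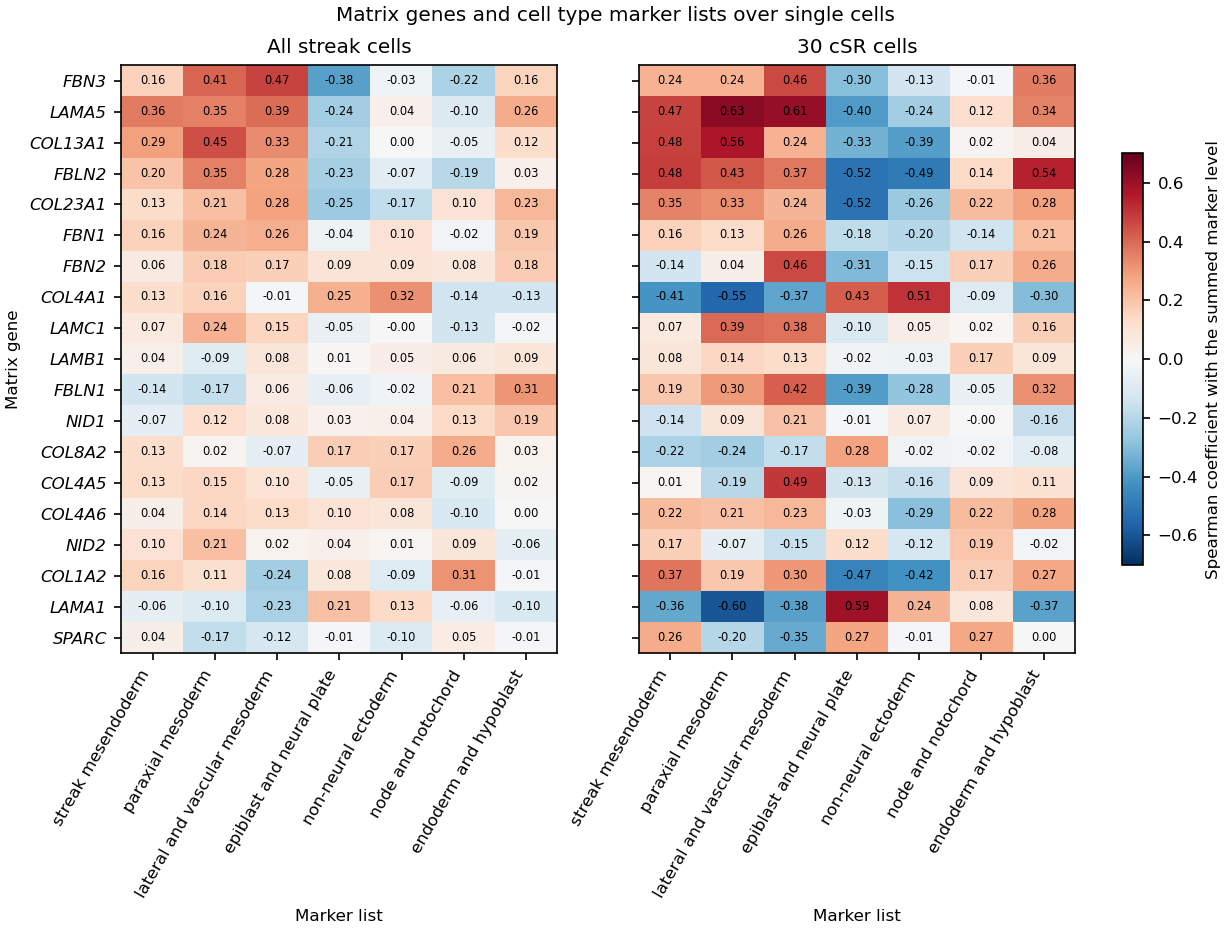
Spearman's rank correlation coefficient of each of 19 matrix genes (rows) with the summed log2(CPM + 1) of 7 marker lists (columns), in all streak cells (left) and 30 cSR cells (right). FBN3, LAMA5, COL13A1, FBLN2, COL23A1, LAMC1 and FBN1 are positive with both mesoderm lists and negative with the epiblast list in both panels. LAMA1, COL4A1, COL8A2 and NID2 are positive with the epiblast list in both.

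The genes most like 4 chosen members were looked up among 7300 others over all streak cells, by Spearman coefficient. For COL4A1 they were LOC100858645 (0.39), SYNPR (0.38), CMTM4 (0.37), LMNB2 (0.35) and C2H9ORF5 (0.34), with values from -0.03 to 0.40 in cSR. For LAMA1 they were LOC101747368 (0.33), SCRN1 (0.32), FRAS1 (0.30), MCM5 (0.30) and TNRC6B (0.29). In cSR these had 0.11, 0.51, 0.35, 0.15 and -0.10 with LAMA1, in the same order. FRAS1 encodes a basement membrane protein.

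For FBN2 the list was LOC101748406 (0.37), INPP4A (0.34), SRPK2 (0.32), KIAA1328 (0.32) and LOC422293 (0.32), with values from -0.10 to 0.33 in cSR, and for SPARC it was SLC2A3 (0.31), UGGT1 (0.27), MED22 (0.26), PUF60 (0.25) and ECI1 (0.25). In cSR the highest of the 5 SPARC values was 0.15, with SLC2A3. For LAMA5 and FBN3, looked up after their pair was seen, values were higher. LAMA5 was nearest to GATA6 (0.47 in the streak, 0.67 in cSR), a factor of cardiac mesoderm and endoderm, then, after FBN3, to MAP4K4 (0.44 and 0.55), SASH1 (0.43 and 0.77) and PDGFRA (0.42 and 0.43), a receptor of migrating mesoderm. The next were GATA4 (0.41 and 0.66), MESP2 (0.40 and 0.05) and GATA2 (0.40 and -0.02), so the last 2 mesoderm factors were near LAMA5 in the streak and close to 0 in cSR. FBN3 was nearest to B3GALT5 (0.50 and 0.48), a galactosyltransferase, then to AGRP (0.47 and 0.04), LAMA5, LOC100859622 (0.45 and 0.09) and SULF1 (0.45 and 0.22).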

How the data were processed

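The authors deposited expected counts per gene for 205 single-cell libraries. The build galGal4 is named per the submitters' processing notes, with RSEM 1.2.3, CASAVA 1.8.2, and Bowtie in version 0.12.9, or 0.12.8 in 1 cell, with no roles. The annotation, the filters and the treatment of strand, overlapping genes and multireads were not given in the sources used here. Only part of the streak table was held, and its 1 incomplete row was dropped. A further 640 genes, with 3.42% of the counts of the surrounding-region table, entered no comparison. Among values above 0, 64.4% were whole.

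CPM were computed over the 20581 shared genes, with no cell removed and no doublet caller run. With 1 sample per series no test was run, so edgeR's quasi-likelihood test, the usual one for counts, was not applied. Alternatives used TMM factors of edgeR 4.0.16 and size factors of DESeq2 1.42.0 in R 4.3.3, and counts thinned to 1000000 per cell. The remaining work was done in Python 3.11.15 with pandas 2.3.3, scipy 1.17.1, numpy 2.4.6 and matplotlib 3.10.9. Genes named are a fixed panel of family members, all called members, the 5 with the widest range of detection, the 10 of 11 fixed pairs with both genes in the tables, the 8 highest pairs, the 5 nearest genes of 4 members, and up to 3 genes of each other list. The members and lists were chosen with earlier results of these data known. All 55 symbols matched the RefSeq gene table of GRCg7b, which is not the build of the counts, so only its gene order was used and no coordinates are given. The values of 1 of the 55 genes are not reported here.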

Additional observations from a re-analysis of the deposited data

Results flagged for a closer look

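Some genes of these families had counts in the surrounding region but were found here in that table only, so they entered no comparison. Their pooled levels in cSR, relative to all genes of that table, were 34.8 CPM for COL18A1, 12.8 CPM for COL5A2, 4.64 CPM for COL3A1, 2.69 CPM for COL6A1, 1.67 CPM for COL6A3 and 0.566 CPM for COL17A1, and COL6A2 had 0 counts. COL18A1, a basement membrane collagen, was detected in 18 of 30 cells (60%, 40.6 to 77.3). The fibrillar genes were concentrated, with 1 cell holding 75.3% of the COL3A1 counts and 51.1% of the COL5A2 counts. FN1, the fibronectin gene, which is no member of these families, stood at 112.9 CPM and was detected in 28 of 30 cells (93.3%). Their streak values were not analysed here.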

How the results depend on the processing

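No paired analysis was possible because replicate numbers only name cells and no test was run. The count of genes higher in cPS, 2 as reported, was 1 with a minimum of 50 CPM, 1 from means of CPM per cell, 0 without each gene's highest cell, and 1 each with cPS1, cPS2 or cPS3 in place of cPS. The count of lower genes, 4 as reported, was 8 without a minimum and 2 with a minimum of 50 CPM. FBN2 and FBN3 were lower under all alternatives tried with cPS, in each block alone and thinned; FBN3 was not with cPS2 or cPS3. The median log2 ratio, -0.42, was -0.24 with TMM factors, -0.30 with DESeq2 factors, -0.43 and -0.31 with pseudocounts of 0.1 and 10 CPM, -0.38 without a minimum, -0.45 with 50 CPM, -0.33 from means per cell, -0.54 without highest cells, -0.43 without the cells labelled epiblast, -0.35 and -0.20 in blocks 1 and 2 alone, -0.31 thinned, -0.036 with cPS1 and -0.32 with cPS3. Block and series alternatives carry no condition on the sign in both blocks. Pairs at a coefficient of 0.3, 1 as reported, numbered 2 by Pearson's r, 2 after series medians were subtracted and 2 given the total count. In cPS1, cPS2 and cPS3 alone, with 37, 59 and 52 cells, they numbered 15, 6 and 6. The share of all gene pairs at 0.3 in single series is not given, so these counts have no background beside them. Genes in at least 50% of cells numbered 11 to 17 under all 8 alternatives. The cause of these changes was not tested. Thinning moved 4 of 275 shares by over 5 points, the most for NID2 in cPS (77.8% thinned, 66.7% as deposited). The main limits are 1 sample per series and 27 and 30 cells in the main comparison. Of the streak series, cPS alone shares identifier blocks with cSR.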

Other observations

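The 2 chains of type I collagen had unlike readings in the same cells, a pattern singled out after its values were seen. COL1A2 was detected in 88% of streak cells and COL1A1 in 2.86% (5 cells), and in cSR in 24 and 3 of 30 cells. Summed over the streak, COL1A2 had 108611 counts and COL1A1 369. Gene lengths are not in the files and the completeness of each gene model in galGal4 was not tested, so the levels of the chains were not compared. COL4A1 and COL4A2, likewise partners in 1 protein, had 8941 and 2040 counts in the streak, and were detected in 59 and 18 cells. In the streak LAMB2 had 1 count and LAMB1 78885 counts.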
